A study of Mus musculus with 6 samples.

Results

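The triad and calcium release genes were followed across an ATAC-seq comparison of mouse muscle, in which a transposase marks open chromatin and reads are counted in peaks. They were 10 genes chosen by name: Ryr1, Cacna1s, Stac3, Jsrp1, Trdn, Asph, Casq1, Casq2, Jph1 and Jph2. Every peak whose deposited gene name was one of them was taken, which gave 135 of 75134 peaks, 18 in the promoter classes of the deposited annotation (up to 3 kb from a start site) and 117 outside them. The libraries came from frozen quadriceps femoris, the large thigh extensor, of Prr14-KO mice (KO, replicates 4, 5 and 7) and Prr14-WT mice (WT, replicates 3, 4 and 8). PRR14 is a protein that ties heterochromatin to the nuclear lamina, and the series title names its part in mechanotransduction and in myofibre identity through MEF2C. The labels do not say the age, sex, strain or Prr14 allele, or whether each library is a separate animal, so the p-values below describe the spread between these libraries, part of which may be technical.

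The triad is the junction at which a transverse tubule, an infolding of the muscle fibre's surface membrane, is flanked by terminal cisternae of the sarcoplasmic reticulum. An action potential moves the voltage sensor in the tubule (Cacna1s, held by Stac3), which opens the ryanodine receptor in the reticulum (Ryr1) and releases calcium for contraction. Calsequestrins (Casq1, Casq2) store the calcium, triadin (Trdn) and junctin (made from Asph) anchor calsequestrin to the receptor, and junctophilins (Jph1, Jph2) hold both membranes together.

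Nearly all lower peaks of these genes belonged to 2 of them. Trdn was lower in KO muscle at its promoter and at peaks spread through its long gene body, with 16 of 48 tested peaks lower and 0 higher. Jph1 had 10 of 28 tested peaks lower and 0 higher, while the peak over its main start site did not pass. The other 8 genes together had 2 of 55 tested peaks lower and 0 higher, and none of their 13 promoter-class peaks passed, those of Ryr1, Cacna1s and Casq1 included. Peaks were tested with edgeR's quasi-likelihood test, and "lower" or "higher" means a Benjamini-Hochberg adjusted p below 0.05 over all 73896 tested peaks. Of these, 4.23% were lower and 2.77% higher, and the share of lower peaks was 1.49% in promoter classes and 5.08% outside them. The counts moved with single libraries: Trdn had 7 lower peaks without KO replicate 5, 7 without KO replicate 7, 10 without WT replicate 3 and 6 without WT replicate 4, and Jph1 had 4, 4, 9 and 5. With the library factors of the authors, described below, Trdn had 3 lower peaks and Jph1 had 1. In bulk tissue, fewer nuclei of a type and less open chromatin per nucleus cannot be told apart. Of the 135 member peaks, 131 passed the filter on low counts. The 4 that did not, 2 at Trdn and 2 at Jph1, averaged at most 0.756 CPM in KO and 1.97 CPM in WT.

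The sequences before the start sites of a channel, a voltage sensor and the 2 calcium buffers are shown. Their promoter peaks, given next, did not pass the test. No sequence was matched for Trdn, so the motifs allow no comparison with its promoter. RefSeq promoter sequence (build GRCm38.p6) was matched for 5 of the 10 genes, Ryr1, Cacna1s, Casq1, Casq2 and Jph2. Each run gives the 250 bases before the start site, 5′ to 3′ on the strand of the gene, and each lies wholly inside the gene's promoter peak. Capitals mark the MEF2 motif, by which MEF2 factors bind muscle genes, or CAGCTG, an E-box that myogenic factors bind. The Ryr1 stretch is chr7:29125152-29125401 (minus strand), that of Cacna1s chr1:136052561-136052810 (plus strand), that of Casq1 chr1:172219896-172220145 (minus strand) and that of Casq2 chr3:102086165-102086414 (plus strand).
Ryr1: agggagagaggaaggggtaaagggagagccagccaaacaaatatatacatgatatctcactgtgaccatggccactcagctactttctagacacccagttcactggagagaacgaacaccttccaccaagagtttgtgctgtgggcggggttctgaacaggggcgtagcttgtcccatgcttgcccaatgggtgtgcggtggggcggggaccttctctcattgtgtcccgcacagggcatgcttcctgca
Cacna1s: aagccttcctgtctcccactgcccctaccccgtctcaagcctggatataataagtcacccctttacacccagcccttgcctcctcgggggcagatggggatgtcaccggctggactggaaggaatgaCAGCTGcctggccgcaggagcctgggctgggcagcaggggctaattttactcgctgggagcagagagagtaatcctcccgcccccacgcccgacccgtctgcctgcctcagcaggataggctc
Casq1: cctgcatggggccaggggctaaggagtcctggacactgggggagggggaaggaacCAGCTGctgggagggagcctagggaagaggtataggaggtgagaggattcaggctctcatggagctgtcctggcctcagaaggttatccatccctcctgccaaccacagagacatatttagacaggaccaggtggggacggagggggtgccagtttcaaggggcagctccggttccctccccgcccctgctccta
Casq2: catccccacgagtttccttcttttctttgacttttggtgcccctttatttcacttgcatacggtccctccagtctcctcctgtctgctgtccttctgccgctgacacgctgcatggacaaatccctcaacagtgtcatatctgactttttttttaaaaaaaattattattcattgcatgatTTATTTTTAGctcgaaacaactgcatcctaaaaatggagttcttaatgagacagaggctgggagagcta
Searched on both strands, Casq2 held 1 MEF2 match, at bases -69 to -60 from the start site, a motif found in 3.01% of 27025 RefSeq promoter windows of this length. Cacna1s (-123 to -118), Casq1 (-195 to -190) and Jph2 (-9 to -4) held 1 CAGCTG each, which 12.8% of those windows hold. The 2 motifs did not overlap in these windows. The Casq2 window was the poorest in G and C of the 5, at 41.6%, against 54.8% in Ryr1, 61.6% in Casq1, 62.0% in Jph2, 62.4% in Cacna1s and a median of 52.0% over all windows.

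Levels are counts per 1000000 reads in peaks (CPM), scaled between libraries with TMM factors. Ryr1, the calcium release channel, had 96.5, 111 and 94.4 CPM at its promoter peak in KO replicates 4, 5 and 7, against 101, 125 and 80.3 CPM in WT replicates 3, 4 and 8. The WT libraries spanned the whole KO range, and the log2 fold change of KO over WT was -0.03 (SE 0.17, adjusted p = 0.971). Cacna1s, the voltage-sensing subunit of the L-type calcium channel, had 55.4, 62.0 and 48.2 CPM in KO and 59.7, 76.1 and 46.5 CPM in WT (log2 fold change -0.14, SE 0.18, adjusted p = 0.786). Its WT values again enclosed those of KO. A second promoter-class peak of Cacna1s, 24.1 kb inside the gene, gave -0.08 (SE 0.18). Stac3, an adaptor that the voltage sensor needs to reach and work in the tubule, had 32.2, 31.2 and 29.8 CPM in KO against 32.8, 42.1 and 27.1 CPM in WT (log2 fold change -0.13, SE 0.19, adjusted p = 0.807). Jsrp1, which encodes the junctional protein JP-45 that binds the voltage sensor and calsequestrin, had 45.4, 56.1 and 44.8 CPM in KO against 47.9, 60.7 and 39.6 CPM in WT (log2 fold change -0.02, SE 0.18, adjusted p = 0.976). These promoter peaks were the only peaks that the table assigned to Stac3 and Jsrp1.

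**Figure D1:**
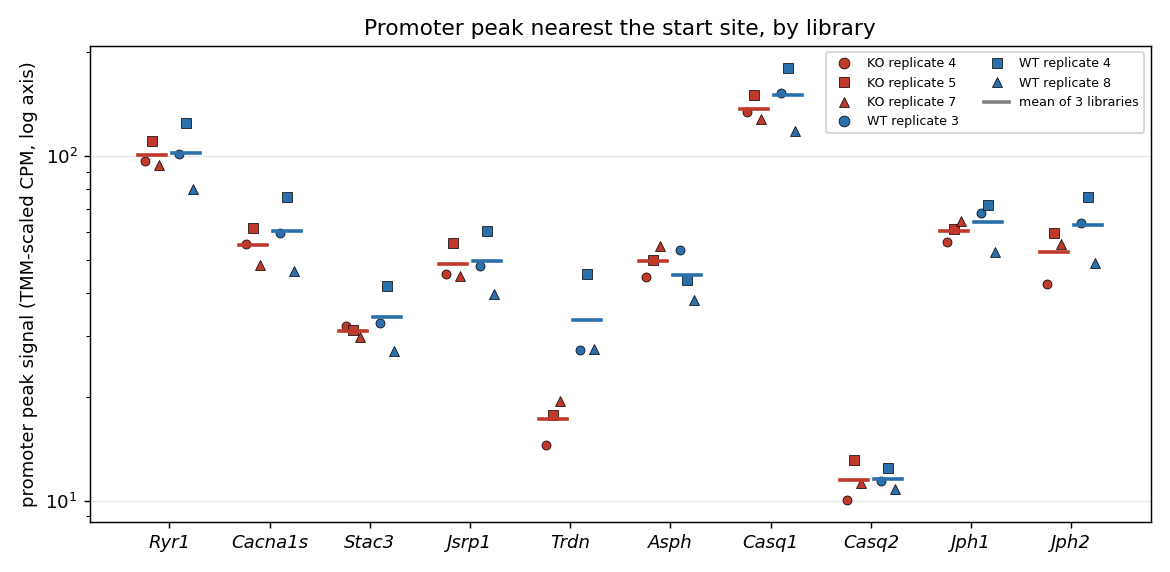
TMM-scaled CPM (log axis) of the promoter peak nearest the start site of each gene, with KO libraries in red at the left of each pair and WT libraries in blue, and a bar at the mean of 3 libraries. The 3 KO libraries lie below the 3 WT libraries at Trdn, at 14.5 to 19.4 against 27.3 to 45.5 CPM, and the groups overlap at the other 9 genes. Of 17415 tested promoter-class peaks, 937 had KO wholly below WT.

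Casq1, the main calsequestrin of skeletal muscle, had 134, 150 and 128 CPM at its promoter in KO and 152, 180 and 118 CPM in WT (log2 fold change -0.13, SE 0.17, adjusted p = 0.793). Casq2, the cardiac isoform that slow fibres also make, had 10.04, 13.2 and 11.3 CPM in KO and 11.4, 12.4 and 10.8 CPM in WT (log2 fold change -0.01, SE 0.22, adjusted p = 0.994). Asph encodes aspartate beta-hydroxylase and, from shorter transcripts, junctin. At its first start site it had 44.5, 49.8 and 54.7 CPM in KO against 53.4, 43.6 and 38.2 CPM in WT (log2 fold change 0.14, SE 0.18, adjusted p = 0.792). At an internal promoter-class peak 26.3 kb into Asph the values were 37.8, 35.3 and 39.8 CPM in KO and 34.6, 51.0 and 30.7 CPM in WT (log2 fold change -0.05, SE 0.18). Jph2, the junctophilin that heart shares with skeletal muscle, had 42.6, 59.6 and 55.5 CPM in KO against 63.9, 76.2 and 49.0 CPM in WT (log2 fold change -0.26, SE 0.18, adjusted p = 0.50). Each of these groups overlapped. A Jph2 promoter-class peak 4.32 kb into the gene had 46.9, 46.8 and 55.3 CPM in KO, all below the 61.1, 87.1 and 56.9 CPM in WT, and did not pass (log2 fold change -0.46, SE 0.18, adjusted p = 0.0987). Per kb of peak and averaged over the 6 libraries, the promoter level ran from 46.3 CPM per kb at Ryr1 through 34.0 at Jph1, 32.6 at Asph, 32.0 at Jph2, 29.0 at Casq1, 28.7 at Jsrp1, 23.0 at Stac3 and 22.5 at Cacna1s to 14.0 at Casq2 and 13.8 at Trdn. The Trdn average joins libraries that differed by genotype, with means of 17.2 CPM in KO and 33.4 CPM in WT for the peak, so its place is not that of WT muscle alone.

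Trdn (ENSMUSG00000019787, chromosome 10, 33080554 to 33476709, GRCm38) was the gene with the lower promoter. Its promoter peak (33082375 to 33084212) was centred 2.74 kb inside the annotated span, at a distance of -189 bases from a transcript start. The peak had 14.5, 17.7 and 19.4 CPM in KO replicates 4, 5 and 7, against 27.3, 45.5 and 27.5 CPM in WT replicates 3, 4 and 8. All 3 KO libraries lay below all 3 WT libraries, and WT replicate 4 stood above the other WT libraries. The means were 17.2 ± 2.47 CPM in KO and 33.4 ± 10.4 CPM in WT (SD, n = 3 each; log2 fold change -0.96, SE 0.19, edgeR adjusted p = 6.12e-05). With WT replicate 4 left out, the log2 fold change was -0.64 (adjusted p = 0.0276). Over all tested promoter-class peaks, 1.49% were lower and 1.58% higher in KO, and among the 18 of the 10 genes 2 were lower and 0 higher, this one and one of Jph1. The other promoter-class peaks of Trdn were weak. The one at 4.96 kb gave -0.35 (SE 0.30, adjusted p = 0.643) and the one at 118 kb, near an internal start site, gave -1.06 (SE 0.41, adjusted p = 0.106).

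Through the Trdn gene body the lower peaks were many and weak. Outside promoters, 15 of 45 tested Trdn peaks were lower and 0 higher, where 5.08% of all tested peaks outside promoters were lower and 3.14% higher. The log2 fold change was below 0 at 45 of these 45 peaks (median -0.80, against -0.05 over all tested peaks outside promoters); counted with the promoter classes it was below 0 at 48 of 48 Trdn peaks, at 47 with the library factors of the authors and at 45 without WT replicate 4. At 25 of the 45 peaks outside promoters every KO library lay below every WT library, as was the case for 12.9% of all tested peaks outside promoters. Peaks along a gene are not independent of each other, so these counts describe a single locus. The lower peaks were spread along the gene, with 5 of 16 tested Trdn peaks lower between 5 and 100 kb from the gene start, 2 of 10 between 100 and 200 kb and 8 of 18 beyond 200 kb. The 2 tested peaks more than 5 kb upstream of Trdn did not pass and had a median of -0.42.

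Of the 10 called member peaks with the largest changes, 8 were introns of Trdn. The intronic peak of Trdn with the smallest p (33091449 to 33093699, 12.0 kb from the gene start) had 9.62, 6.82 and 6.87 CPM in KO and 14.5, 20.4 and 11.7 CPM in WT (log2 fold change -1.02, SE 0.23, adjusted p = 3.88e-04). The groups did not overlap. Deeper in the gene, a peak at 189 kb (33268843 to 33269457) had 2.93, 3.53 and 2.01 CPM in KO and 6.38, 8.46 and 6.98 CPM in WT (log2 fold change -1.36, SE 0.31, adjusted p = 4.52e-04). This peak passed under each of 13 alternatives, which changed the scaling, filter, tool or promoter class or left out 1 library, the library factors of the authors included. The Trdn peak with the greatest change, at 228 kb (33307985 to 33308310), came from weak signal, 1.78, 1.23 and 0.641 CPM in KO against 4.53, 3.22 and 3.55 CPM in WT (log2 fold change -1.63, SE 0.47, adjusted p = 0.0121). That call was lost without KO replicate 5 (adjusted p = 0.0652), KO replicate 7 (0.113) or WT replicate 3 (0.133). The remaining 6 of these 8 introns had log2 fold changes of -1.30 to -1.21, and each lost its call without at least 1 library. WT replicate 4 was such a library for 5 of them (adjusted p without it 0.0809 to 0.328) and KO replicate 5 for 3 (0.0970 to 0.175), while the sixth was lost without KO replicate 5, KO replicate 7 (0.0851) or WT replicate 3 (0.136).

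**Figure D2:**
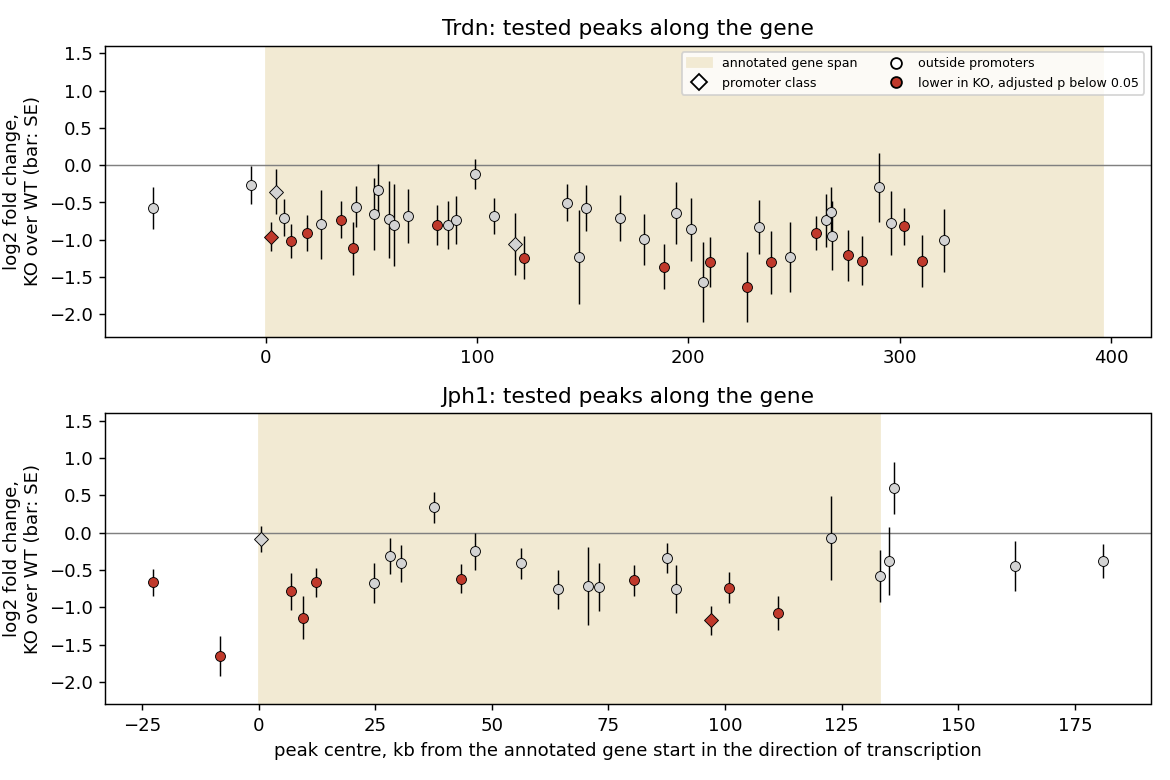
Log2 fold change of KO over WT, with its SE, for each tested peak of Trdn (above) and Jph1 (below) against the distance of the peak centre from the annotated gene start in kb; red marks peaks lower in KO and shading the annotated gene span. With TMM scaling all 48 Trdn peaks lie below 0 (47 with the authors' factors, 45 without WT replicate 4), and at Jph1 the promoter peak at the start sits at -0.08 between lower peaks on both sides.

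Summed over all 47 Trdn peaks outside promoters, KO libraries held 187, 179 and 142 CPM and WT libraries 275, 337 and 256 CPM. No KO library reached the lowest WT library. The log2 fold change of this sum was -0.77 (SE 0.14, edgeR adjusted p = 1.46e-04 over 12062 genes), and it was lower without each library in turn, with log2 fold changes from -0.85 to -0.62. In that test 5.75% of genes were lower and 3.89% higher. The sum of the Trdn promoter-class peaks was lower too, at 19.6, 23.6 and 26.8 CPM in KO against 36.5, 56.5 and 35.1 CPM in WT (log2 fold change -0.88, SE 0.18, adjusted p = 0.0112). Of all genes with summed promoter counts, 0.416% were lower and 0.377% higher. The promoter sum did not pass without KO replicate 5 (adjusted p = 0.0796) or WT replicate 4 (log2 fold change -0.59, adjusted p = 0.258). Among the 360 genes with at least 20 tested peaks outside promoters, Trdn ranked 10th by the share of them that was lower, 33.3%, and Jph1 ranked 8th with 34.6%. By the number of lower peaks outside promoters, Trdn ranked 7th over all genes, after Pik3r1, Mylk4, Rbfox1, Pde4dip, Neb and Tbl1xr1.

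The lower signal did not end with the peaks that the table assigned to Trdn. Chosen after their values were seen, 3 tested peaks inside the annotated Trdn span were assigned to the neighbouring gene Clvs2, and they gave log2 fold changes of -0.42, -1.27 and -0.73, of which the second was lower (adjusted p = 0.0178). Past the end of Trdn, 2 intergenic peaks assigned to Clvs2 were also lower (33481729 to 33482850, log2 fold change -1.24, and 33487717 to 33488008, -1.50). Over 500 kb on both sides of the span, 9 peaks of other genes were tested, with a median of -0.56. The 2 that were lower are the 2 intergenic Clvs2 peaks just named, and 0 were higher. The same flanks of Jph1 held 18 tested peaks with 2 lower, 0 higher and a median of -0.40, and those of the other 8 genes had medians between -0.05 and 0.29. Distal peaks were assigned by the deposited annotation, so the gene named for a peak is an assignment and not a tested target.

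Jph1 (ENSMUSG00000042686, chromosome 1, 16964560 to 17097889, minus strand), the main junctophilin of skeletal muscle, showed another arrangement. The peak over its start site (17096543 to 17098383) had 56.1, 61.4 and 64.7 CPM in KO and 68.3, 72.0 and 52.7 CPM in WT, with overlapping groups (log2 fold change -0.08, SE 0.18, adjusted p = 0.888). A promoter-class peak near an internal transcript start, 97.0 kb into the gene (16999553 to 17002211), had 19.8, 21.2 and 13.2 CPM in KO and 38.2, 49.1 and 34.8 CPM in WT. The highest KO library stayed well under the lowest WT library (log2 fold change -1.17, SE 0.19, adjusted p = 2.04e-07). It was the second called promoter-class peak of the 10 genes, although it does not lie at the main promoter.

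Outside promoters, 9 of 26 tested Jph1 peaks were lower and 0 higher, with a median of -0.63. Over all tested peaks outside promoters 5.08% were lower and 3.14% higher, with a median of -0.05. As at Trdn, peaks along the gene are not independent, so the count describes a single locus. The intergenic peak 8.25 kb upstream of Jph1 (17105633 to 17106650) fell most of all tested member peaks, to 3.24, 3.86 and 3.30 CPM in KO, against 10.7, 14.1 and 7.77 CPM in WT. The means were 3.47 ± 0.345 CPM in KO and 10.8 ± 3.16 CPM in WT (SD, n = 3 each; log2 fold change -1.65, SE 0.27, adjusted p = 1.76e-07), and the call held under each of the 13 alternatives. A stronger peak 22.7 kb upstream had 41.7, 35.3 and 31.8 CPM in KO and 53.6, 72.7 and 45.2 CPM in WT (log2 fold change -0.66, SE 0.18, adjusted p = 0.00684). Inside the gene, an intronic peak 9.59 kb from the start gave -1.14 (SE 0.29, adjusted p = 0.00291), one at 111 kb gave -1.07 (SE 0.23, adjusted p = 1.88e-04), and the remaining 5 called peaks gave -0.78 to -0.62. Not every Jph1 peak pointed down: an intronic peak at 37.6 kb had 20.3, 18.7 and 11.8 CPM in KO against 13.3, 16.5 and 10.004 CPM in WT (log2 fold change 0.34, SE 0.21, adjusted p = 0.438). A weaker intergenic peak beyond the far end of Jph1 (16961331 to 16961796) had 5.02, 4.77 and 4.12 CPM in KO, all above the 2.98, 3.59 and 2.50 CPM in WT, and did not pass (log2 fold change 0.60, SE 0.34, adjusted p = 0.380). The sum of Jph1 peaks outside promoters was 267, 232 and 186 CPM in KO and 307, 412 and 287 CPM in WT (log2 fold change -0.56, SE 0.14, adjusted p = 0.00855), lost without KO replicate 5 (adjusted p = 0.0687) or KO replicate 7 (0.153). Of all genes with sums outside promoters, 5.75% were lower. The Jph1 promoter sum did not pass (log2 fold change -0.42, SE 0.15, adjusted p = 0.355).

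**Figure D3:**
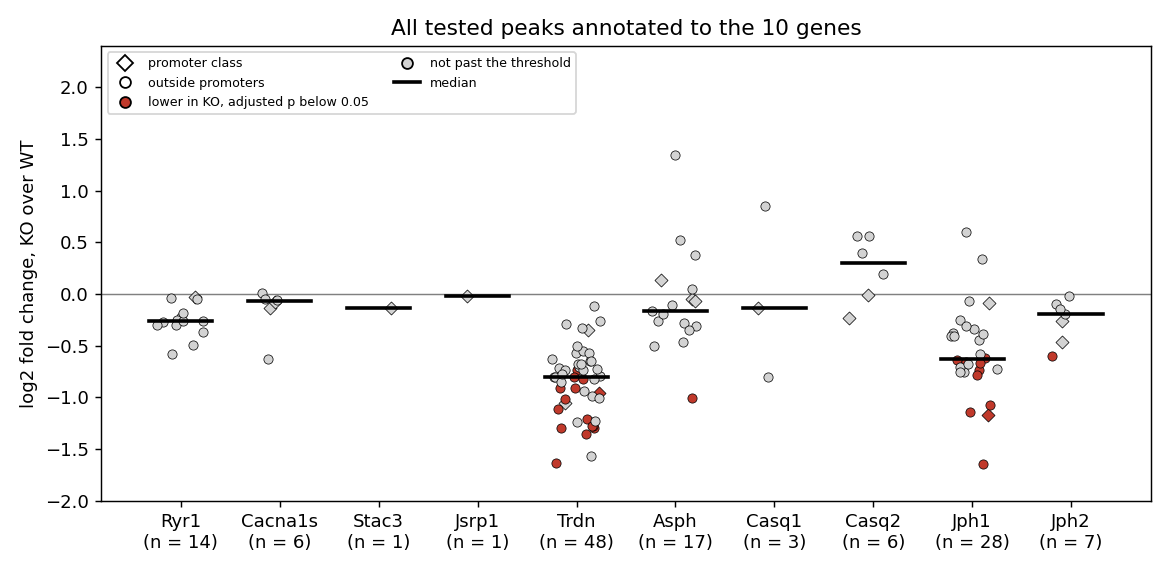
Log2 fold change of KO over WT of all 131 tested peaks by gene, diamonds for promoter classes and circles for other peaks, red where lower in KO, with a black line at the median of each gene. The medians of Trdn (-0.80) and Jph1 (-0.63) lie below those of the other 8 genes, which run from -0.26 at Ryr1 to 0.30 at Casq2.

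No peak of the release channel or of the voltage sensor passed. Ryr1 had 13 tested peaks outside promoters, all in the exon class, with log2 fold changes of -0.58 to -0.04 (median -0.26). The smallest p belonged to a peak 14.8 kb into the gene with 35.8, 41.7 and 30.6 CPM in KO and 44.6, 61.9 and 45.0 CPM in WT, groups that did not overlap (log2 fold change -0.49, SE 0.18, adjusted p = 0.0812). With WT replicate 8 left out, 2 Ryr1 peaks were lower, this one among them (adjusted p = 0.0489). The summed Ryr1 signal outside promoters was 214, 203 and 144 CPM in KO and 221, 270 and 193 CPM in WT (log2 fold change -0.29, SE 0.14, adjusted p = 0.249). Cacna1s had 4 tested peaks outside promoters with a summed signal of 99.8, 111 and 96.5 CPM in KO and 104, 124 and 86.4 CPM in WT (log2 fold change -0.04, SE 0.14, adjusted p = 0.921). For the 14 Ryr1 peaks, 0 passed in edgeR, DESeq2 or limma-voom, and 2 had an unadjusted edgeR p under 0.05. For the 6 Cacna1s peaks all these counts were 0.

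At Asph, 1 of 14 tested peaks outside promoters was lower, or 7.14%, near the 5.08% of all tested peaks outside promoters. This was an intergenic peak 39.0 kb upstream of the first start site (chromosome 4, 9707568 to 9709159). It had 9.20, 6.49 and 8.60 CPM in KO and 19.2, 16.3 and 12.9 CPM in WT, without overlap (log2 fold change -1.004, SE 0.22, adjusted p = 4.03e-04). The call was lost without KO replicate 5 (adjusted p = 0.0556). A weak intronic peak 150 kb into Asph went the other way, with 2.405, 3.12 and 2.56 CPM in KO and 0.617, 0.368 and 2.37 CPM in WT, and did not pass (log2 fold change 1.34, SE 0.56, adjusted p = 0.145). At Jph2, 1 of 5 tested peaks outside promoters was lower, too few peaks to set against that share. This was an intronic peak 18.4 kb from the start (chromosome 2, 163379154 to 163379965). Its values were 17.1, 18.2 and 19.9 CPM in KO and 25.8, 36.3 and 21.5 CPM in WT (log2 fold change -0.60, SE 0.20, adjusted p = 0.0338). The call was lost without KO replicate 4, 5 or 7 (adjusted p = 0.173, 0.236 and 0.0597), without WT replicate 3 or 4 (0.0637 and 0.366), with DESeq2 (0.0770) and with total counts (0.0531).

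Casq2 was the one member gene whose sum outside promoters passed as higher in KO, where 3.89% of all genes with such sums did. Its 4 peaks outside promoters summed to 39.6, 35.7 and 35.5 CPM in KO, all above the 22.6, 30.6 and 24.2 CPM in WT (log2 fold change 0.51, SE 0.16, adjusted p = 0.0348). The largest part came from an intronic peak 13.4 kb into Casq2 (chromosome 3, 102099327 to 102100288), with 25.8, 21.6 and 22.2 CPM in KO and 12.1, 20.4 and 14.5 CPM in WT. By itself that peak did not pass (log2 fold change 0.56, SE 0.20, adjusted p = 0.0697), though it did without WT replicate 4 (log2 fold change 0.83, adjusted p = 0.00514). The Casq2 sum was no longer called without KO replicate 4 (adjusted p = 0.166), KO replicate 5 (0.0826), KO replicate 7 (0.0592) or WT replicate 3 (0.186). The 500 kb flanks of Casq2 held 29 tested peaks of other genes, with 0 lower, 3 higher and a median log2 fold change of 0.29, the highest flank median of the 10 genes. Casq1 had 2 weak peaks outside promoters, which summed to 4.18, 6.99 and 5.58 CPM in KO and 3.19, 5.43 and 5.13 CPM in WT (log2 fold change 0.29, SE 0.31, adjusted p = 0.661). One of them, 17.3 kb upstream, had 3.45, 5.67 and 3.94 CPM in KO and 1.54, 3.86 and 1.71 CPM in WT (log2 fold change 0.85, SE 0.37, adjusted p = 0.176) and passed without WT replicate 4 (adjusted p = 0.0350). The sums of Asph (log2 fold change -0.24, SE 0.13) and Jph2 (-0.15, SE 0.13) outside promoters did not pass.

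**Figure D4:**
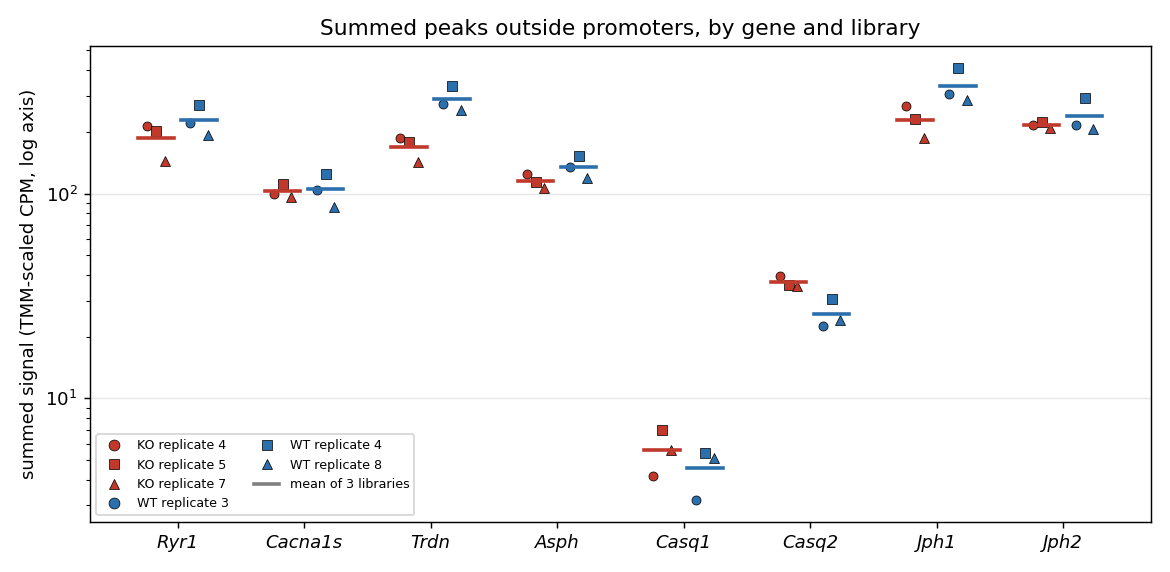
Summed TMM-scaled CPM (log axis) of all peaks outside promoters for the 8 genes that have any, with KO libraries in red at the left of each pair, WT libraries in blue and bars at the mean of 3 libraries. KO lies wholly below WT at Trdn and Jph1 and wholly above WT at Casq2, and the groups overlap at the other 5 genes. The share of all genes whose sums separate in this way is not given here. Of 56481 single peaks tested outside promoters, 7305 had KO wholly below WT and 5446 wholly above.

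A list of 36 further genes was read beside the 10, most of them genes of excitation-contraction coupling or of the triad membranes. Klhl31 was listed with them, though it is not a gene of either kind. A promoter-class peak was present and tested for 29 of them, with 2 lower, 0 higher and 27 not passing, and a median log2 fold change of -0.05 at the peak nearest the start site. Over all tested promoter-class peaks 1.49% were lower and 1.58% higher, with a median of 0.06. Klhl31, a kelch-repeat gene of muscle, had 43.3, 40.9 and 38.4 CPM in KO and 57.5, 80.8 and 49.5 CPM in WT (log2 fold change -0.62, SE 0.18, adjusted p = 0.0122). Mrln, which encodes the micropeptide myoregulin that restrains the reticulum's calcium pump, had 24.3, 23.8 and 20.4 CPM in KO and 34.0, 43.0 and 29.1 CPM in WT (log2 fold change -0.64, SE 0.19, adjusted p = 0.0161). In both genes, named because they passed, all KO libraries lay below all WT libraries, as was the case for 937 of 17415 tested promoter-class peaks. Without KO replicate 5, without KO replicate 7 or without WT replicate 4, 0 promoter peaks of the list passed. Over all 303 tested peaks of the listed genes, 21 were lower and 8 higher, where 4.23% of all tested peaks were lower and 2.77% higher, and the median log2 fold change was -0.07, against -0.01 over all tested peaks. Klhl31 held 5 of those 21 lower peaks, among its 11 tested.

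Total counts in peaks ran from 9346968 to 12061822 in KO and from 7608514 to 11575061 in WT. Promoter peaks of the 8 skeletal muscle fibre markers were all present, and none was called. They summed to 765, 822 and 774 CPM in KO replicates 4, 5 and 7 and to 806, 1017 and 660 CPM in WT replicates 3, 4 and 8, so WT replicate 4, the highest library at Trdn and Jph1, was also the highest over muscle promoters generally. Without it, 6 Trdn peaks and 5 Jph1 peaks were lower, the medians were -0.73 and -0.39, and the sums outside promoters still passed (log2 fold change -0.62 for Trdn, adjusted p = 5.79e-05, and -0.35 for Jph1, adjusted p = 0.0195). Only promoter peaks of the fibre markers were summed here. Outside promoters only the fibre marker Neb was read, because it ranked among the genes with most lower peaks. Neb had 16 of 42 tested peaks lower and 0 higher, where 5.08% of all tested peaks outside promoters were lower and 3.14% higher. The other fibre markers were not counted outside promoters, so Neb does not stand for them. Of the markers of other cell types, 0 of 21 tested promoter peaks were called, and their sums overlapped between the genotypes for each type. The cardiac list, 2 of whose 5 genes had a promoter peak, summed to 4.36 to 9.25 CPM in KO and 6.35 to 8.42 CPM in WT, with no promoter-class peak at Nppa, Nppb or Myl7. Their part in the results was not tested.

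The choice of scaling between libraries changed how many peaks passed. The library factors of the authors, by which the deposited counts had been divided, ran from 0.977 to 1.04 in KO and from 0.984 to 1.02 in WT. They did not follow the library totals given above, so the values stayed almost unscaled for depth, and how the factors were made is not stated. With the library factors of the authors in edgeR, all tested peaks had a median log2 fold change of 0.19 in place of -0.01, and 4 member peaks were lower, 3 at Trdn and 1 at Jph1. None of the gene sums passed with them, and neither did the Trdn promoter peak (log2 fold change -0.78, adjusted p = 0.205) or the internal Jph1 peak (-0.996, adjusted p = 0.0606). Relative to that shift the medians were nearly the same, -0.80 for Trdn against -0.79 with TMM, and -0.63 for Jph1 against -0.62. The small negative values of Ryr1, Cacna1s, Stac3, Jsrp1, Casq1, Casq2 and Jph1 at their start sites turned positive with those factors, and none passed. In the authors' deposited table, 2 member peaks passed at an adjusted p below 0.05, both at Jph1, the internal promoter-class peak (log2 fold change -0.997, adjusted p = 0.0357) and the peak 8.25 kb upstream (log2 fold change -1.48, adjusted p = 0.00618).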

How the data were processed

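The authors deposited 1 table with raw counts per peak and library, a normalized signal that equals each count divided by 1 library factor, their own log2 fold changes with p-values and adjusted p-values, 1 score for every peak and an annotation with distances to start sites. Build GRCm38 and the tools BWA, MACS2, Trimmomatic, DESeq2 1.6.3, bedtools and deepTools are listed, without roles, per the submitters' processing notes. How reads were shifted, deduplicated and counted is not given in the sources used here. Columns were matched to samples by title, and none was left unused.

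Counts were tested in R 4.3.3 with edgeR 4.0.16 (glmQLFit, glmQLFTest, two-sided, TMM, filterByExpr with minimum count 10 and minimum total 15), per peak and on counts summed per gene, with promoter classes apart. SE is the log2 fold change divided by the root of F. The procedure was tested on simulated data. Alternatives were median-ratio factors, total counts, the authors' factors, no filter, DESeq2 1.42.0, limma-voom 3.58.1, promoters within 1 kb, and leaving out each library. Precision is limited by 3 libraries a group; replicate pairs gave a chi-square of 4.05 to 7.38 for each degree of freedom, more than counting error alone gives.

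Members, lists and tests were chosen with earlier results of these data known. The plan was to name, for each gene, the promoter-class peak nearest the start site, the summed counts and the other peak with the smallest p. The 10 largest called peaks were to be named too, some of them given as a range. Not given above is the Cacna1s peak with the smallest p outside promoters (log2 fold change -0.63, SE 0.41, edgeR adjusted p = 0.489). Nor are the promoter sums of Cacna1s (log2 fold change -0.12), Asph (0.04), Casq2 (-0.08) and Jph2 (-0.36), none of which passed. Further peaks and the 500 kb flanks were chosen after their values were seen. Of the 36 listed genes, those whose promoter peak passed are named. RefSeq sequences were searched for the motifs on both strands.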

Additional observations from a re-analysis of the deposited data

How the results depend on the processing

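Each result was recomputed under 13 alternatives: 7 changes of scaling, filter, tool or promoter class and 6 that left out 1 library; the narrower promoter class leaves the values of single peaks as they are. The Trdn median stayed between -0.91 and -0.61 and the Jph1 median between -0.74 and -0.39 over all 13, and 0 Trdn or Jph1 peaks were higher in any. No sign of a called value turned. With the factors of the authors, lower peaks numbered 0 in promoter classes, 4 outside them, 3 at Trdn, 1 at Jph1 and 0 at the other 8 genes, 0 gene sums passed in either class, and 0 promoters of the 36 further genes were lower; that scaling moved the median of all peaks to 0.19. DESeq2 gave 6 lower Jph1 peaks and 1 at the other 8 genes. Promoters within 1 kb gave 1 lower promoter peak. Total counts gave 1 lower and 1 higher peak at the other 8 genes, and no filter on low counts 1 higher; the higher one lay outside promoters in both. The cause of these changes was not tested.

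Leaving out each library in turn gave 2 to 3 lower promoter peaks, 9 to 24 lower and 0 to 2 higher peaks outside promoters, 6 to 14 lower peaks at Trdn, 4 to 11 at Jph1, and 0 to 5 lower and 0 to 2 higher at the other 8 genes. The lowest counts outside promoters were 9 without KO replicate 5 and 10 without KO replicate 7 or without WT replicate 4, and the Trdn count was 7, 7 and 6. Genes with lower sums outside promoters numbered 1 to 2, genes with higher ones 0 to 1, genes with lower promoter sums 0 to 1, and lower promoters of the 36 further genes 0 to 2. No paired analysis was possible because the groups share only replicate number 4. With 3 libraries a group, an exact permutation test of 1 value cannot go below p = 0.1, and weak peaks, such as those of 1 to 4 CPM deep in Trdn, have wide errors.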
